A study of Mus musculus with 8 samples.

Results

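The replication-dependent histone genes encode the bulk of the histones that package newly made DNA. They were taken as every gene whose symbol falls in the series H1f1 to H1f6, H2ac, H2bc, H3c or H4c. This gave 56 of the 25229 genes in the files: 6 H1, 14 H2A, 14 H2B, 12 H3 and 10 H4 genes. Of these, 46 lie in the cluster on chromosome 13 (chr13:21715763-23934851, GRCm38) and 10 in the cluster on chromosome 3 (chr3:96219865-96270132). The choice of genes used symbols and no measured value.

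The libraries are bulk RNA-seq of liver cells from C57BL/6 mice. All mice were Ifih1-/-, lacking the double-stranded RNA sensor MDA5, and all carried Alb-Cre, a recombinase driven by the albumin promoter and so active in hepatocytes. They differed in Adar1, the RNA-editing enzyme gene that the mice carried as wild-type alleles (wt/wt, 3 mice), with 1 floxed allele (wt/flox, 2 mice) or with floxed alleles only (flox/flox, 3 mice). The series' design text counts 2 mice without wild-type Adar1 alleles, whereas 3 samples carry that genotype label; all 3 were used. The labelled ages were 7 to 11 weeks. The wt/flox mice were 11 and 9 weeks old and both labelled male. The wt/wt and flox/flox groups each also held a 7-week mouse labelled female. Comparisons with wt/flox therefore also differ in age and sex make-up. Livers were perfused with collagenase, and cells were taken by low-speed pelleting, red cell lysis and a Percoll gradient, a preparation that enriches hepatocytes but keeps some other cells. Ribosomal RNA was depleted and no poly(A) selection is described in the labels' protocols, so transcripts without a poly(A) tail could enter the libraries.

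Most metazoan mRNAs end in a poly(A) tail, but the mRNAs of these histone genes end just after a short stem-loop in the 3′ untranslated region. The stem-loop is bound by SLBP, and the pre-mRNA is cut downstream of it by a complex that holds the U7 snRNP, in which LSM11 is a subunit. Transcription is driven in S phase through NPAT at histone locus bodies, and the mRNAs are degraded when DNA synthesis ends. Adult hepatocytes are mostly quiescent. Some histone genes are also known to give polyadenylated transcripts in cells that do not divide.

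The histone stem-loop, as a 16-base pattern with free bases in the arms and in the loop, was looked for in the GENCODE M21 transcripts on the transcript strand. It was found in transcripts of 36 of the 56 genes, and in 72 of 21901 protein-coding genes (0.329%). The sites of 7 genes described below are shown as examples of the mark by which these mRNAs are processed. The 16 bases of the stem-loop are in capitals, with 5 bases on each side:
H1f2: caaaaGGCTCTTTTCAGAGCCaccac
H1f4: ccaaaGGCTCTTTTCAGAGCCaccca
H2ac20: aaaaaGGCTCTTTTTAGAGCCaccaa
H3c6: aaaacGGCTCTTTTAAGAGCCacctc
H4c8: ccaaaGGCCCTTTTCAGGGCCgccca
H4c14: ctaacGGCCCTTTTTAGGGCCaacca
H4c2: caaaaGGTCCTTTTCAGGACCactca

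The capitals lie at chr13:23739512-23739527 (plus strand) in H1f2, chr13:23621782-23621797 (minus) in H1f4 and chr3:96220418-96220433 (minus) in H2ac20. They lie at chr13:23561903-23561918 (minus) in H3c6, chr13:23531458-23531473 (plus) in H4c8, chr3:96262939-96262954 (minus) in H4c14 and chr13:23757366-23757381 (plus) in H4c2. The form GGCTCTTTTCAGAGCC was shared by 21 genes of the H1, H2A, H2B and H3 classes, and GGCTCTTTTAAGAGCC by 6 genes of H1, H2B and H3. All 8 H4 genes with a site had a form of their own class: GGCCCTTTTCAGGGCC in H4c3, H4c4, H4c6 and H4c8, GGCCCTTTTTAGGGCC in H4c9 and H4c14, and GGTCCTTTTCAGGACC in H4c2 and H4c11. In 19 of the 36 genes the annotated transcript runs on for at least 100 bases past the stem-loop, by 840 bases in H1f2 and 1257 in H4c14, and in 17 it ends within 100 bases. The transcripts of the other 20 genes, H2bc4, H4c1, H1f1 and H1f5 among them, hold no such letters. Sequence past the annotated transcript ends was not searched, so a site there would be missed.

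Promoters from RefSeq (GRCm38.p6, 250 bases before to 50 after the annotated start) were matched for 51 of the 56 genes. CCAAT, on either strand, was in 45 of them (37.4% of all 32851 promoters in the table), TATAAA in 30 (13.6%) and the octamer ATTTGCAT in 12 (1.74%). The 12 promoters with the octamer were those of 6 H2A and 6 H2B genes, and 3 of the 9 H4 promoters held CCAAT. Only the first promoter listed for each gene was counted. H2bc6 has another, at chr13:23585921-23586220 (minus strand), which holds the octamer. Promoters of an H2A gene and of the H2B gene facing it overlap in places, so they share some of these matches. The promoters of H2ac20 (chr3:96220831-96221130, minus strand), which holds all 3 motifs, and of H4c8 (chr13:23530794-23531093, plus strand), which holds none, are shown with the matches in capitals:
H2ac20: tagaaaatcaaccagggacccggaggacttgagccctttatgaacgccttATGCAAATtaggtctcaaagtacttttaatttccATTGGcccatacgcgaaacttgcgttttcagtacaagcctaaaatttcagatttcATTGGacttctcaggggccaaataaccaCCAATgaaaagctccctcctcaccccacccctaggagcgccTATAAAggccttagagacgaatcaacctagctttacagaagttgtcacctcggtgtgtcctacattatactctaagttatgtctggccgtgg
H4c8: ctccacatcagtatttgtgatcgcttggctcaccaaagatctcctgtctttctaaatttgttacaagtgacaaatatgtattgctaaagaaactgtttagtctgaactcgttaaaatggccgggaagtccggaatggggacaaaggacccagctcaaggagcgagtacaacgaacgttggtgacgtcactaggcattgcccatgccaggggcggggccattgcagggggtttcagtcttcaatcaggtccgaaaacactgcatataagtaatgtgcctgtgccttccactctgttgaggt

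A match describes these letters and does not show that a factor binds there. The levels of these genes are given below as CPM, the reads on the gene's strand divided by the scaled library size.

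Sense gene reads numbered 75875711 to 132303735 per library. All 12 hepatocyte markers passed the filter on low counts and summed to 105151 to 124322 CPM in wt/wt mice and 159869 to 245700 CPM in the other libraries. Of the 12, 3 were higher in flox/flox and 4 in wt/flox than in wt/wt, beside 15.1% and 6.58% of all genes. None was lower. Reads in no gene also moved with the groups, making up 22.2% to 28.1% of strand-matched reads in wt/wt mice and 31.7% to 40.01% in wt/flox and flox/flox mice. Adar reads numbered 2770 to 5873 in wt/wt, 1880 and 2239 in the wt/flox mice and 4018 to 5542 in the flox/flox mice, so its total over the gene was not lower in flox/flox; the labels do not name the floxed exons. Ifih1 reads numbered 0 to 4. The file names give all wt/flox and flox/flox libraries a mark of a second batch and the wt/wt libraries none, so genotype and this mark cannot be told apart in comparisons with wt/wt. Only flox/flox against wt/flox lies within 1 mark. In flox/flox the sex label was contradicted by transcripts in 2 libraries: replicate 1, female by its label, had Y-linked transcripts, and replicate 2, male by its label, had Xist. Results are therefore also given without these 2 libraries. The labels give each library of a group an age of its own, in the same order of replicate numbers in every group.

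Of the 56 genes, 49 passed the filter on low counts and were tested. The 7 others had fewer than 80 sense reads summed over the 8 libraries. H2ac1, which is testis-specific, H2ac18 and H3c15 had 0 reads, and H2ac19 had 37, H1f6, the testis linker histone, 21, H2bc1, also of testis, 18 and H3c14 15. H2ac18 and H2ac19 have the same coding sequence, as do H3c14 and H3c15, and reads that align to several places were tallied apart from genes. The low counts of these 4 genes therefore say little about their RNA.

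Summed over all 56 genes, the level was highest in wt/wt. It was 369.1, 384.1 and 378.7 CPM in wt/wt replicates 1 to 3, 150.6 and 165.9 in the wt/flox mice, and 132.9, 175.5 and 164.7 in the flox/flox mice. Every wt/wt library lay above every other library, and the wt/flox values fell inside the flox/flox range. The means were 377.3 ± 7.59 (SD, n = 3), 158.2 ± 10.8 (n = 2) and 157.7 ± 22.1 (n = 3). The wt/wt mean was 2.39 times the flox/flox mean and 2.38 times the wt/flox mean, and flox/flox stood at 0.997 times wt/flox. In bulk samples, fewer cells of a type and less RNA per cell cannot be told apart.

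**Figure D1:**
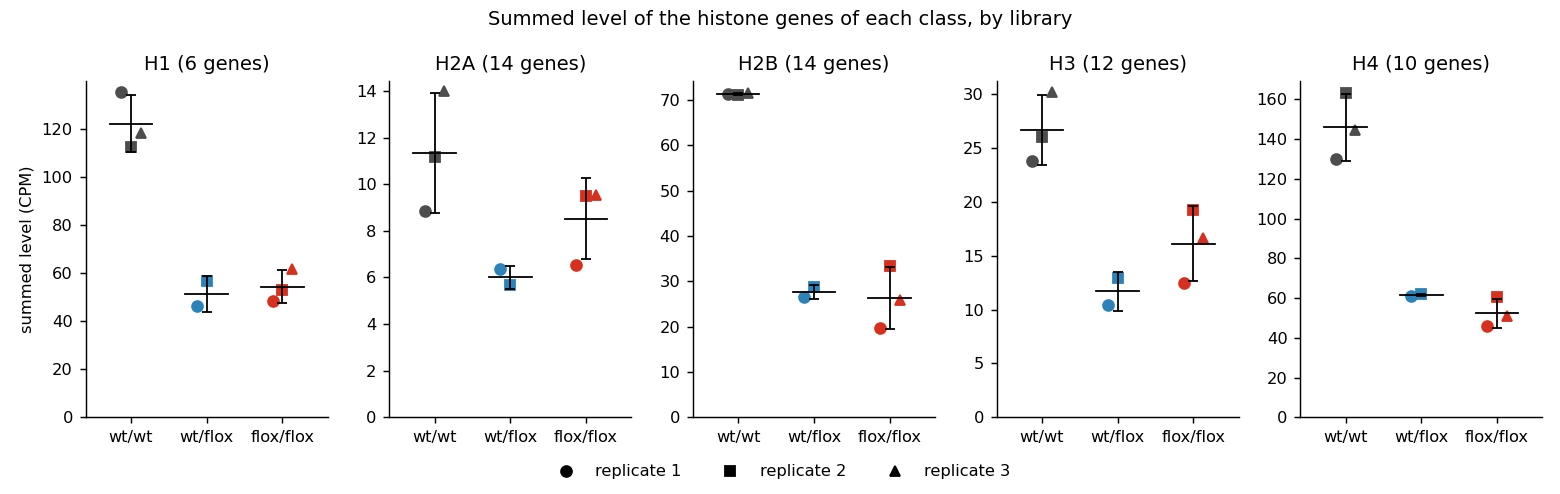
Summed level of the histone genes of each class in each library, in CPM from 0, by genotype. Symbols mark the replicate number, the horizontal lines group means and the bars 1 SD. In H1, H2B and H4 all wt/wt libraries sit far above the others (for H4, 129.9 to 163.3 against 45.8 to 62.0), while in H2A the flox/flox range of 6.52 to 9.55 reaches into the wt/wt range of 8.85 to 14.0.

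By class, the ratio of the wt/wt to the flox/flox mean was 2.79 for H4, 2.71 for H2B, 2.24 for H1, 1.65 for H3 and 1.33 for H2A. The plot of summed levels by class shows the 3 groups. Against wt/flox the ratios lay closer together, at 2.37, 2.59, 2.37, 2.28 and 1.89 in the same order. H4 and H1 genes held 37.4% and 32.9% of the summed level, H2B genes 18.1%, H3 genes 7.9% and H2A genes 3.73%.

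Of the 49 tested genes, 17 were lower in flox/flox than in wt/wt and 0 were higher (edgeR quasi-likelihood test, adjusted p under 0.05). Over all 14728 genes tested, 14.7% were lower and 15.1% higher. The median log2 fold change was -0.76 for the histone genes and 0.02 for all genes. In 20 of the 49, every flox/flox library lay below every wt/wt library, as in 22.0% of all genes. In wt/flox against wt/wt, 17 histone genes were lower and 0 higher, beside 5.89% and 6.58% of all genes. Their median log2 fold change was -1.30, and that of all genes -0.06. In 38 of the 49 both wt/flox libraries lay below every wt/wt library, as in 29.3% of all genes. These 2 comparisons share the wt/wt libraries.

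Counts of calls depended on single libraries. Without wt/wt replicate 2 the count in flox/flox against wt/wt was 11, and without the 2 libraries of contradicted sex, which leaves 1 flox/flox library that is assumed to vary like the other groups, it was 8. In wt/flox against wt/wt it was 0 without wt/wt replicate 2 or without either wt/flox library and 10 without wt/wt replicate 1, while the median log2 fold change stayed between -1.42 and -1.14 in those 4 fits. With a trend in exon length removed, the counts were 10 and 7, beside 11.5% and 1.51% of all genes called lower, and the median log2 fold changes of the histone genes were -0.39 and -0.85.

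By read abundance the genes were very unequal. The 12 with the highest mean CPM over all 8 libraries held 83.8% of the summed level, and all 12 were called lower in both comparisons with wt/wt. Of the other 37 tested, 5 were called lower in each, beside 14.7% of all genes in flox/flox and 5.89% in wt/flox. Abundance over all libraries includes the wt/wt libraries in which these genes were high, and abundant genes are tested with more precision.

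**Figure D2:**
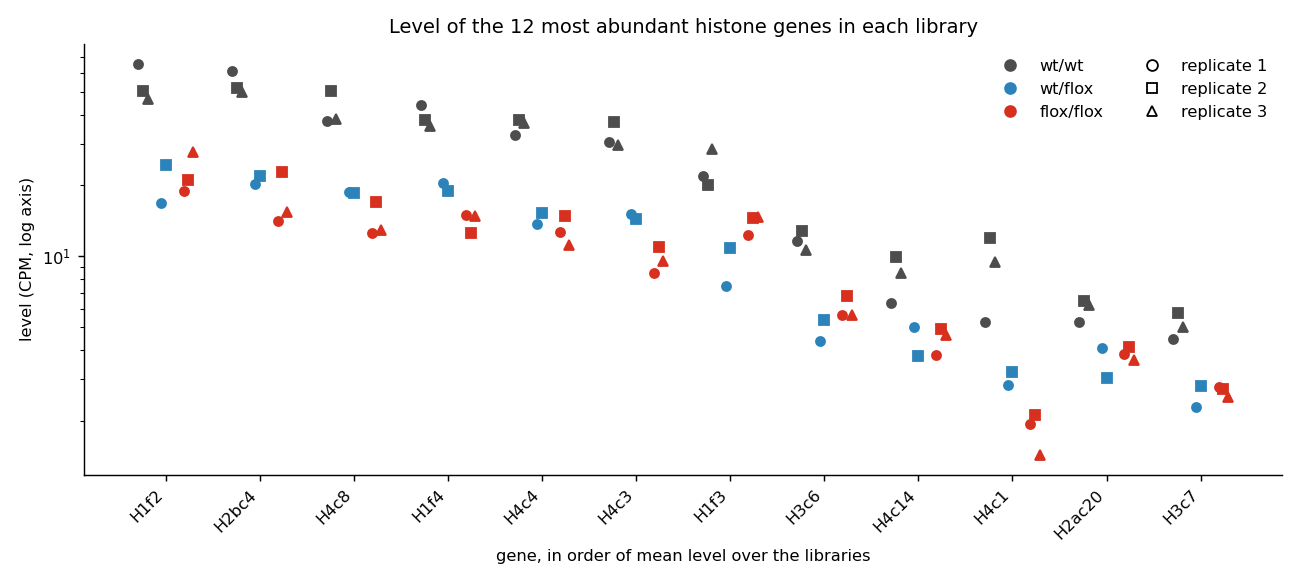
Level in CPM (log axis) of the 12 most abundant histone genes in each library, coloured by genotype, with a symbol for the replicate number. For each of the 12 genes the 3 wt/wt libraries lie above all wt/flox and flox/flox libraries, with narrow gaps for H4c14 (6.31 against 5.02) and H2ac20 (5.27 against 4.14).

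The linker histones H1 bind the DNA between nucleosomes. H1f2 (H1.2, chr13:23738808-23740367) had 65.9, 50.2 and 46.5 CPM in wt/wt mice, 16.9 and 24.4 in wt/flox mice, and 18.9, 21.1 and 27.8 in flox/flox mice. Its wt/wt libraries did not overlap the rest, and wt/flox and flox/flox overlapped. H1f2 was 2.4-fold lower in flox/flox than in wt/wt mice (log2 fold change -1.26, SE 0.21, edgeR adjusted p = 0.00524) and 2.62-fold lower in wt/flox (-1.39, SE 0.25, edgeR adjusted p = 0.0176). Without the 2 libraries of contradicted sex the first was -0.97 with an adjusted p of 0.0684, over alternatives that ran from 6.02e-07 to that value.

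H1f4 (H1.4, chr13:23620629-23622558) had 43.9, 38.0 and 35.7 CPM in wt/wt mice, 20.6 and 19.03 in wt/flox mice, and 15.0, 12.5 and 14.8 in flox/flox mice. The 3 groups did not overlap, with flox/flox lowest. The fall was 2.78-fold in flox/flox (log2 fold change -1.47, SE 0.13, edgeR adjusted p = 0.000869) and 1.98-fold in wt/flox (-0.99, SE 0.14, adjusted p = 0.0115). The gene overlaps H2bc6 on the same strand at its annotated end, where a read may be assignable to neither.

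H1f3 (H1.3, chr13:23553262-23560686) had 21.9, 20.1 and 28.6 CPM in wt/wt mice, 7.46 and 10.9 in wt/flox mice, and 12.3, 14.5 and 14.7 in flox/flox mice. Here wt/flox was lowest and the groups again did not overlap. H1f3 was 1.7-fold lower in flox/flox than in wt/wt mice (log2 fold change -0.76, SE 0.19, edgeR adjusted p = 0.0198) and 2.57-fold lower in wt/flox (-1.36, SE 0.22, adjusted p = 0.0146). Without flox/flox replicate 2 the flox/flox call was lost (-0.80, adjusted p = 0.05 after rounding), and without both libraries of contradicted sex its adjusted p was 0.156, in a range from 0.00179. The GENCODE model of H1f3 spans 7425 bases, much more than the RefSeq one (23555032 to 23555807), and the annotation behind the counts is not given in the sources used here.

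The 2 other tested linker genes, H1f1 and H1f5, were not called. H1f5 (H1.5) had 1.74, 0.643 and 4.17 CPM in wt/wt mice, 0.679 and 1.01 in wt/flox mice, and 1.17, 2.38 and 2.93 in flox/flox mice. Its level varied more among the wt/wt libraries than between the group means, and its log2 fold change in flox/flox against wt/wt was -0.01 (SE 0.63).

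H2A and H2B form the dimers at the outer faces of the nucleosome. Only 1 of the 11 tested H2A genes was called against wt/wt, beside 14.7% (flox/flox) and 5.89% (wt/flox) of all genes lower. H2ac20 (chr3:96220361-96220880) had 5.27, 6.47 and 6.20 CPM in wt/wt mice, 4.09 and 3.04 in wt/flox mice, and 3.84, 4.14 and 3.63 in flox/flox mice. The wt/wt libraries lay above the others by a small margin. Its fall was 1.55-fold in flox/flox (log2 fold change -0.63, SE 0.17, edgeR adjusted p = 0.0251) and 1.67-fold in wt/flox (-0.74, SE 0.19, adjusted p = 0.0416). The calls of H2ac20 depended on single libraries and on removal of the exon-length trend. In flox/flox 16 of 23 alternatives kept the call, and 8 of 23 kept the one in wt/flox. The flox/flox call was lost without wt/wt replicate 2 (adjusted p = 0.0934) or 3 (0.0587), or without replicate 2 (0.0547) or 3 (0.0657) of flox/flox, and with the trend in exon length removed the estimate was -0.13 (adjusted p = 0.59, the highest of a range that began at 0.00246). The other 10 tested H2A genes had mean levels under 1 CPM, and over all 11 the median log2 fold change was -0.22 in flox/flox and -0.74 in wt/flox.

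H2bc4 (chr13:23684199-23692908) was the most abundant H2B gene by far. It had 61.2, 52.1 and 50.0 CPM in wt/wt mice, 20.3 and 21.9 in wt/flox mice, and 14.2, 22.9 and 15.5 in flox/flox mice. All wt/wt libraries lay above the rest, and flox/flox replicate 2 stood above both wt/flox libraries. The fall was 3.11-fold in flox/flox (log2 fold change -1.64, SE 0.19, edgeR adjusted p = 0.00189) and 2.58-fold in wt/flox (-1.37, SE 0.22, adjusted p = 0.0144). Its annotated transcript has 2 exons and 1156 bases and holds no stem-loop.

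H2bc6 (chr13:23583670-23621124) had 2.27, 3.53 and 3.28 CPM in wt/wt mice, 0.702 and 0.895 in wt/flox mice, and 1.17, 1.65 and 1.56 in flox/flox mice. The groups did not overlap and wt/flox was lowest. H2bc6 was 2.07-fold lower in flox/flox than in wt/wt mice (log2 fold change -1.05, SE 0.26, edgeR adjusted p = 0.0197) and 3.79-fold lower in wt/flox (-1.92, SE 0.31, adjusted p = 0.0146). The flox/flox call was lost without wt/wt replicate 2 (adjusted p = 0.0774) and without the 2 libraries of contradicted sex (0.123), with a range from 0.000794. H2bc8 was also called in flox/flox (log2 fold change -1.24, SE 0.34, edgeR adjusted p = 0.0289), with 2.27, 4.91 and 4.08 CPM in wt/wt mice and 1.10, 1.95 and 1.71 in flox/flox mice. H2bc21, on chromosome 3, was not called at -0.38 (SE 0.35).

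H2A and H2B genes often lie head to head. Among these genes, 9 such pairs had annotated starts 176 to 306 bases apart. In CPM per kilobase of transcript, H2bc4 stood 121.2 times above its partner H2ac6 and H2ac20 9.79 times above H2bc21. In the other pairs with reads in both genes that were tested, the ratio lay between 1.07 and 4.7. By this measure, partners differed most where 1 of them was abundant. It depends on annotated length. The GENCODE transcripts of H2ac6 and H2bc21 have 2482 and 2620 bases, and RefSeq places H2ac6 at 23683473 to 23683959 only. In plain CPM, the means were 32.2 for H2bc4 and 0.571 for H2ac6, and 4.58 for H2ac20 and 2.36 for H2bc21. H2ac6 had 0.842, 0.786 and 0.958 CPM in wt/wt mice, 0.222 and 0.114 in wt/flox mice, and 0.122, 0.804 and 0.721 in flox/flox mice. Only flox/flox replicate 1 was low in its group, and the log2 fold change against wt/wt was -0.64 (SE 0.61).

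H3 and H4 form the tetramer at the centre of the nucleosome. H3c6 (chr13:23561534-23562369) was the most abundant H3 gene, with 11.7, 12.8 and 10.6 CPM in wt/wt mice, 4.38 and 5.34 in wt/flox mice, and 5.61, 6.76 and 5.63 in flox/flox mice. The groups did not overlap and wt/flox was lowest. H3c6 was 1.95-fold lower in flox/flox than in wt/wt mice (log2 fold change -0.96, SE 0.14, edgeR adjusted p = 0.00352) and 2.41-fold lower in wt/flox (-1.27, SE 0.17, adjusted p = 0.0103). With the exon-length trend removed, the flox/flox estimate was -0.47 (adjusted p = 0.0545, range from 5.36e-07).

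H3c7 (chr13:23544052-23545312) had 4.48, 5.75 and 5.03 CPM in wt/wt mice, 2.29 and 2.83 in wt/flox mice, and 2.80, 2.73 and 2.53 in flox/flox mice. The wt/wt libraries stood apart and the other groups overlapped. H3c7 was 1.89-fold lower in flox/flox mice (log2 fold change -0.92, SE 0.17, edgeR adjusted p = 0.00662) and 1.99-fold lower in wt/flox (-0.99, SE 0.19, adjusted p = 0.0211). With the exon-length trend removed, its flox/flox estimate was -0.49 (adjusted p = 0.0804, range from 1.61e-05). H3c13 and H3c1 were each called in a single comparison. The level of H3c13 fell in flox/flox (log2 fold change -0.98, SE 0.31, edgeR adjusted p = 0.0449), with 1.81, 2.22 and 2.00 CPM in wt/wt mice and 0.622, 1.31 and 1.12 in flox/flox mice. It differs from H3c14 and H3c15 by 1 of 411 coding bases, so its reads are uncertain. That of H3c1 fell in wt/flox (-2.21, SE 0.55, edgeR adjusted p = 0.0389), with 1.95, 1.43 and 1.62 CPM in wt/wt mice, 0.269 and 0.454 in wt/flox mice, and 0.555, 1.89 and 1.12 in flox/flox mice. For H3c1 the flox/flox and wt/wt libraries overlapped.

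The H4 class had the highest share of calls. Of its 10 genes, 7 were lower in flox/flox and 8 in wt/flox, beside 14.7% and 5.89% of all genes. By GENCODE transcript length, H4c8 (chr13:23531050-23531519) was the highest of all 56 genes, at 54.7 CPM per kilobase of its 470-base transcript. The next were H2bc4 at 27.9, H4c3 at 23.8, H1f2 at 21.8 and H4c4 at 19.2 CPM per kilobase. The GENCODE transcripts of H4c3, H1f2 and H4c4 have 820, 1560 and 1138 bases. Their RefSeq models are much shorter (23698084 to 23698458, 23738807 to 23739531 and 23581568 to 23581969). The RefSeq model of H4c8 is close in length (23531044 to 23531478), so its lead depends on the annotation. H4c8 had 37.5, 50.1 and 38.2 CPM in wt/wt mice, 18.8 and 18.5 in wt/flox mice, and 12.6, 17.0 and 12.9 in flox/flox mice. The 3 groups did not overlap, with flox/flox lowest. The fall was 2.96-fold in flox/flox (log2 fold change -1.57, SE 0.17, edgeR adjusted p = 0.00146) and 2.25-fold in wt/flox (-1.17, SE 0.19, adjusted p = 0.015).

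H4c4 (chr13:23581598-23582735) had 32.6, 37.8 and 36.9 CPM in wt/wt mice, 13.7 and 15.3 in wt/flox mice, and 12.7, 14.9 and 11.2 in flox/flox mice. Only the wt/wt libraries stood apart. H4c4 was 2.77-fold lower in flox/flox (log2 fold change -1.47, SE 0.14, edgeR adjusted p = 0.00111) and 2.47-fold lower in wt/flox (-1.30, SE 0.16, adjusted p = 0.0101). H4c3 (chr13:23697635-23698454) had 30.6, 37.3 and 29.8 CPM in wt/wt mice, 15.1 and 14.4 in wt/flox mice, and 8.52, 10.9 and 9.58 in flox/flox mice. Here all 3 groups were apart and flox/flox was lowest. H4c3 had the smallest adjusted p of the histone genes in flox/flox, at a 3.36-fold fall (log2 fold change -1.75, SE 0.14, edgeR adjusted p = 0.000767). In wt/flox it was 2.2-fold lower (-1.14, SE 0.16, adjusted p = 0.0109).

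H4c1 (chr13:23760692-23761230) had the largest estimated fall in flox/flox. It had 5.24, 12.01 and 9.45 CPM in wt/wt mice, 2.85 and 3.22 in wt/flox mice, and 1.93, 2.13 and 1.43 in flox/flox mice. The groups did not overlap, although wt/wt replicate 1 was well below the other wt/wt libraries. The fall was 4.86-fold in flox/flox (log2 fold change -2.28, SE 0.31, edgeR adjusted p = 0.00276) and 2.93-fold in wt/flox (-1.55, SE 0.35, adjusted p = 0.0315).

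H4c14 (chr3:96261682-96263311), on chromosome 3, had 6.31, 9.98 and 8.51 CPM in wt/wt mice, 5.02 and 3.76 in wt/flox mice, and 3.82, 4.93 and 4.63 in flox/flox mice. Its wt/wt libraries lay above the rest by a small margin. H4c14 was 1.85-fold lower in flox/flox (log2 fold change -0.89, SE 0.21, edgeR adjusted p = 0.0169) and 1.88-fold lower in wt/flox (-0.91, SE 0.24, adjusted p = 0.046). Without wt/wt replicate 2 the flox/flox adjusted p was 0.0651, in a range from 0.00096 to 0.116. The wt/flox call was kept in 6 of 23 alternatives.

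H4c6 (chr13:23551258-23551648) had 5.74, 5.10 and 5.98 CPM in wt/wt mice, 1.43 and 1.56 in wt/flox mice, and 1.55, 1.60 and 3.38 in flox/flox mice. Only flox/flox replicate 3 stood above its group. H4c6 was 2.57-fold lower in flox/flox (log2 fold change -1.36, SE 0.31, edgeR adjusted p = 0.0152) and 3.75-fold lower in wt/flox (-1.91, SE 0.37, adjusted p = 0.0209). Without the 2 libraries of contradicted sex, which keeps replicate 3 alone, the flox/flox estimate was -0.73 (adjusted p = 0.0674, range from 0.000117).

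H4c2 (chr13:23757013-23757409) had 4.598, 5.81 and 4.16 CPM in wt/wt mice, 1.87 and 1.95 in wt/flox mice, and 1.63, 3.12 and 2.45 in flox/flox mice. The wt/wt libraries were apart from both other groups. The fall was 2.02-fold in flox/flox (log2 fold change -1.01, SE 0.26, edgeR adjusted p = 0.0222) and 2.54-fold in wt/flox (-1.35, SE 0.30, adjusted p = 0.0301). The flox/flox call was lost without wt/wt replicate 1 (adjusted p = 0.0541), wt/wt replicate 2 (0.0856) or flox/flox replicate 3 (0.0536), in a range from 0.00139 to 0.0909. H4c9 was called in wt/flox alone (-1.39, SE 0.34, edgeR adjusted p = 0.0364), with 2.77, 2.76 and 3.14 CPM in wt/wt mice, 0.819 and 1.39 in wt/flox mice, and 1.59, 2.51 and 1.55 in flox/flox mice. Its groups did not overlap, and the flox/flox estimate against wt/wt was -0.62 (SE 0.28).

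In flox/flox against wt/wt, 6 of the 15 genes described by rule were called under every alternative: H1f4, H2bc4, H4c8, H4c4, H4c3 and H4c1. In wt/flox against wt/wt none was, since leaving out either wt/flox library or wt/wt replicate 2 left no call among the histone genes.

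**Figure D3:**
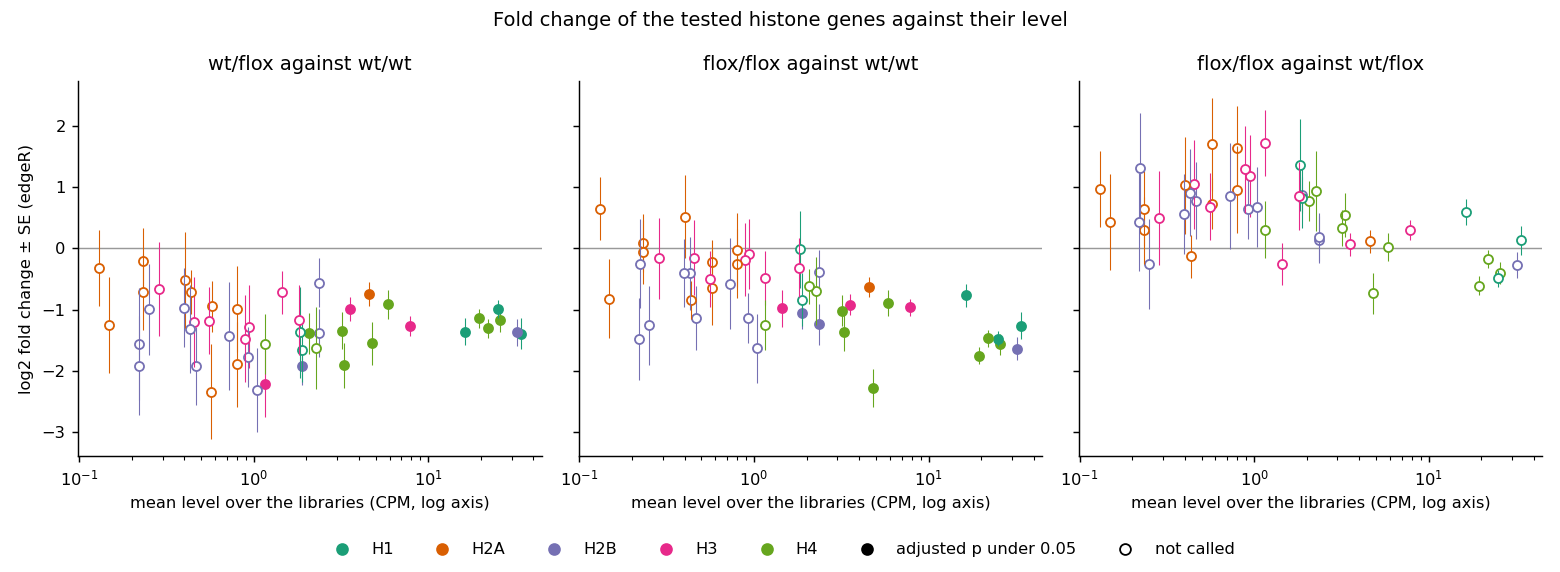
Log2 fold change with its SE (edgeR) of the 49 tested histone genes against their mean level in CPM (log axis), in the 3 comparisons, coloured by class and filled where the adjusted p was under 0.05. Against wt/wt nearly all estimates lie below 0. In flox/flox against wt/flox 40 of 49 lie above 0 and none is called, and the genes above 10 CPM spread from -0.61 to 0.60.

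No histone gene was called in flox/flox against wt/flox, the comparison within 1 batch mark, nor was any of the 14728 genes (0.0%). At an unadjusted p under 0.05 there were 7 histone genes and 1240 genes in all (8.42%). DESeq2 called 0 histone genes and 75 genes in all, and limma-voom 0 and 0. The estimate was above 0 for 40 of the 49 genes, with a median log2 fold change of 0.60 beside 0.04 over all genes. The median was 0.77 for the 37 less abundant genes and -0.07 for the 12 most abundant, of which 6 were above 0 and 6 below. The median over the 49 was 0.37 with the labelled sex as a term, 0.36 with the replicate block and the labelled sex, -0.05 with the sex by transcripts, and 0.86 without the 2 libraries of contradicted sex. No histone gene passed the test in any of these fits.

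The less abundant genes also varied within groups. The 44 genes outside the top 12 summed to 42.6, 51.5 and 73.1 CPM in wt/wt mice, 19.1 and 23.2 in wt/flox mice, and 20.7, 40.9 and 40.4 in flox/flox mice. The highest wt/wt library was replicate 3, and flox/flox replicate 1 fell within the wt/flox values while replicates 2 and 3 stood near the lowest wt/wt library. In both groups that hold libraries with Xist, those libraries (wt/wt replicate 3, flox/flox replicates 2 and 3) had the highest sums. They were also the youngest of their groups by label, as replicates 1, 2 and 3 were 11, 9 and 7 weeks old. Sex and age cannot be told apart here. The 12 most abundant genes summed to 326.5, 332.6 and 305.6 CPM in wt/wt mice, 131.4 and 142.7 in wt/flox mice, and 112.2, 134.5 and 124.3 in flox/flox mice. Here wt/wt replicate 3 was lowest in its group, while flox/flox replicates 2 and 3 were again above replicate 1.

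**Figure D4:**
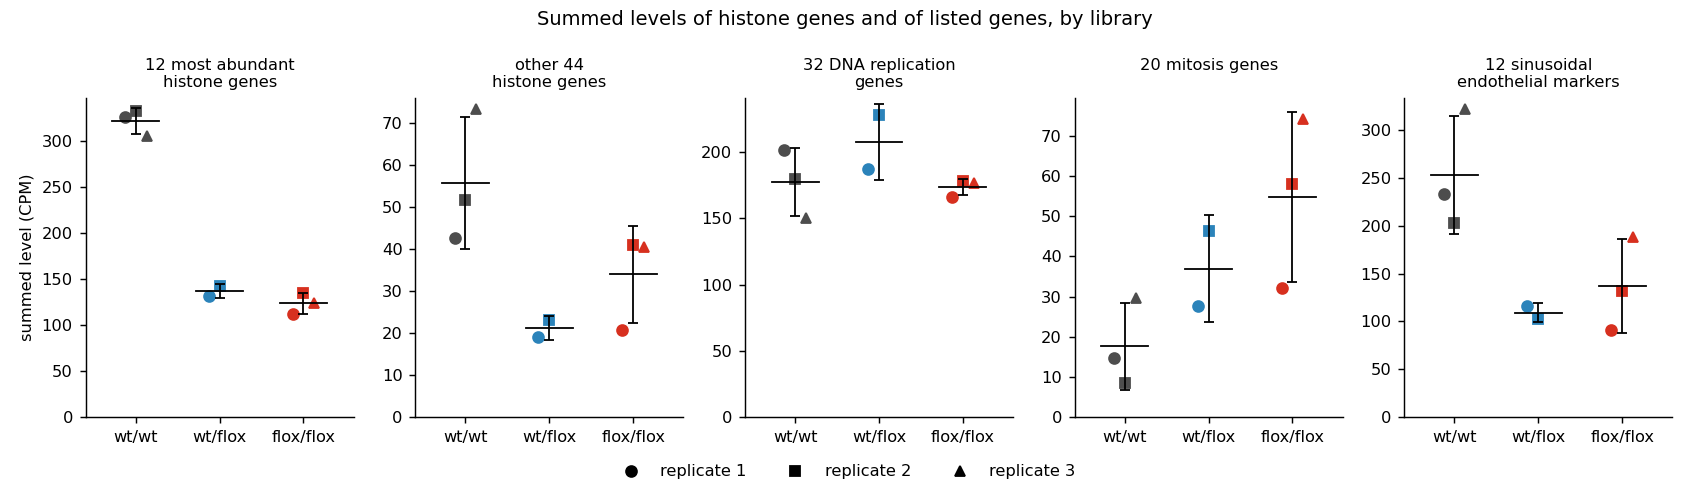
Summed level in CPM, from 0, of the 12 most abundant histone genes, the other 44, and 3 lists of other genes in each library. Symbols mark the replicate number, horizontal lines the group means and bars 1 SD. The abundant histone genes are higher in wt/wt (305.6 to 332.6) than elsewhere (112.2 to 142.7), while the mitosis genes span 8.51 to 29.7 in wt/wt and 27.6 to 74.1 elsewhere, ranges that overlap.

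Factors of histone gene transcription and mRNA processing were listed beside the histone genes. Slbp, the stem-loop binding protein, had 7.32, 9.72 and 9.28 CPM in wt/wt mice, 7.42 and 6.63 in wt/flox mice, and 8.55, 7.38 and 7.12 in flox/flox mice. These values overlapped, and its log2 fold change in flox/flox against wt/wt was -0.19 (SE 0.15, edgeR adjusted p = 0.358). Npat, the activator at histone loci, had 11.9, 10.4 and 9.72 CPM in wt/wt mice, 15.1 and 11.3 in wt/flox mice, and 19.1, 13.1 and 13.3 in flox/flox mice (flox/flox against wt/wt 0.50, SE 0.19, adjusted p = 0.0807). Lsm11, of the U7 snRNP, had a log2 fold change of -0.10 (SE 0.24). Of the 24 listed factors of histone gene transcription and mRNA processing or decay, 4 were lower and 5 higher in flox/flox, with a median of -0.03, where 14.7% of all genes were called lower and 15.1% higher.

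The exonuclease gene Xrn1 was higher, with 33.4, 31.4 and 32.5 CPM in wt/wt mice, 48.6 and 51.6 in wt/flox mice, and 60.8, 51.0 and 56.5 in flox/flox mice. Its log2 fold change was 0.79 in flox/flox (SE 0.10, edgeR adjusted p = 0.00245) and 0.63 in wt/flox (SE 0.11, adjusted p = 0.0176). Hinfp, a transcription factor of H4 genes, was higher in flox/flox (0.76, SE 0.13, edgeR adjusted p = 0.00526), from 4.46, 4.52 and 5.43 CPM in wt/wt to 8.53, 7.90 and 7.97.

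The replication-independent histone genes are expressed outside S phase as polyadenylated mRNAs. Of 11, 6 were lower in flox/flox and 2 in wt/flox, beside 14.7% and 5.89% of all genes. None was higher, and their medians were -0.71 and -0.39. H1f0, the linker histone of quiescent cells, had 116.4, 129.9 and 94.5 CPM in wt/wt mice, 64.2 and 71.7 in wt/flox mice, and 52.7, 59.9 and 68.1 in flox/flox mice. Its wt/wt libraries did not overlap the others (flox/flox -0.92, SE 0.15, edgeR adjusted p = 0.005). H3f3a, for the variant H3.3, fell by 1.00 on the log2 scale (SE 0.15, adjusted p = 0.00343) and H2az1, for H2A.Z, by 0.71 (SE 0.16, adjusted p = 0.014).

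Histone chaperones deliver histones to DNA. Of 22, 3 were lower and 5 higher in flox/flox, beside 14.7% and 15.1% of all genes, with a median of -0.06. Ubn2, of the H3.3 chaperone complex HIRA, rose (0.97, SE 0.12, edgeR adjusted p = 0.00227), as did Atrx (0.67, SE 0.12, adjusted p = 0.00596), and Ssrp1, of the FACT complex, fell (-0.61, SE 0.13, adjusted p = 0.0112).

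Cell cycle genes were tested as lists beside the histone genes. Of 32 DNA replication genes, 2 were higher and 1 lower in flox/flox, beside 15.1% and 14.7% of all genes. Their median was 0.12, and none was called in wt/flox. Pole, a DNA polymerase subunit, had 2.71, 2.23 and 2.76 CPM in wt/wt mice and 3.93, 7.19 and 6.94 in flox/flox mice (1.23, SE 0.24, edgeR adjusted p = 0.00902). Pcna, the polymerase clamp, was lower (-0.35, SE 0.10, adjusted p = 0.0374). Of 20 mitosis genes, 11 were higher and none lower in flox/flox, with a median of 1.60, where 15.1% of all genes were called higher. In wt/flox none was called, with a median of 1.10. Their levels were low, summing to 14.8, 8.51 and 29.7 CPM in wt/wt mice, 27.6 and 46.4 in wt/flox mice, and 32.2, 58.1 and 74.1 in flox/flox mice. Cdc20, an activator of the anaphase-promoting complex, had 1.01, 0.558 and 1.45 CPM in wt/wt mice and 2.22, 4.495 and 4.66 in flox/flox mice (1.92, SE 0.47, adjusted p = 0.0195).

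Markers of sinusoidal endothelial cells were lower in the same groups. Of 12 sinusoidal endothelial markers, 7 were lower in flox/flox and 6 in wt/flox, beside 14.7% and 5.89% of all genes. None of the markers was at 0. They summed to 202.9 to 321.6 CPM in wt/wt mice, 102.2 and 116.2 in wt/flox mice, and 91.2 to 188.3 in flox/flox. Ehd3 of this list fell 2.97-fold in flox/flox (SE 0.21 on the log2 scale, edgeR adjusted p = 0.00256). The 10 Kupffer cell markers summed to 48.0 to 213.2 CPM in wt/wt mice, 25.7 and 26.8 in wt/flox mice, and 25.2 to 91.6 in flox/flox, with no call and wt/wt replicate 3 highest. The 10 monocyte and recruited macrophage markers summed to 28.8 to 109.6, 17.4 and 19.2, and 17.1 to 53.6 CPM in the same groups, also with no call. For both lists wt/wt and flox/flox overlapped, while both wt/flox libraries lay below every wt/wt library. The median log2 fold changes against wt/wt were -1.17 in flox/flox and -2.01 in wt/flox for the Kupffer cell markers. For the monocyte and recruited macrophage markers tested they were -0.73 and -1.59. Stellate cell markers overlapped too, at 29.4 to 63.8 CPM in wt/wt mice and 40.7 to 85.7 in flox/flox, with no call. Cholangiocyte markers summed to 41.0 to 46.3 CPM in wt/wt mice, 39.2 and 72.6 in wt/flox mice, and 66.5 to 125.0 in flox/flox. Of the 5 tested, 1 was lower and 1 higher in flox/flox, beside 14.7% and 15.1% of all genes. Neutrophil markers stayed at or under 12.9 CPM and T and NK cell markers at or under 3.3 CPM in sum. The part of these cells in the lower histone levels was not tested.

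Transcript length moved with the groups too. Among genes other than these histones, those with 500 to 1000 exonic bases had a median log2 fold change of -0.49 in flox/flox and -0.52 in wt/flox, and 33.9% and 21.4% of them were called lower. The 17 tested histone genes of that length had medians of -0.62 and -1.38. Among genes under 500 bases the medians were 1.00 and 0.73 for 295 other genes and -0.64 and -1.21 for 20 histone genes. For 1000 to 2000 bases, 1726 other genes had medians of -0.42 and -0.43, and 8 histone genes -1.37 and -1.24. The histone medians were thus below those of other genes in each of these length classes. In flox/flox, 500 to 1000 bases was the class with the smallest distance.

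How the annotated transcript ends was compared across the histone genes. Of 16 tested genes whose transcript runs at least 100 bases past the stem-loop, 10 were lower in flox/flox, with a median of -1.01. Of 15 whose transcript ends sooner, 4 were lower (-0.49), and of 18 without a stem-loop in the transcript, 3 were (-0.48). Of all genes, 14.7% were called lower. The last class includes transcripts that end with the coding sequence, such as H4c12 at 312 bases. Bases past an annotated end were not searched. In wt/flox the medians of these classes were close, at -1.33, -1.32 and -1.22. The first class was also the most abundant, with a median level of 2.96 CPM against 0.803 and 0.932.

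Histone genes are near copies of each other, which limits how reads can be placed. Reads that aligned to several places made up 8.97% to 10.9% of wt/wt and 3.92% to 4.98% of wt/flox and flox/flox libraries, so this share moved with the groups. In 23 tested genes at least 70% of 100-base stretches occur in no other gene's transcript. Of these, 10 were lower in flox/flox and 11 in wt/flox, beside 14.7% and 5.89% of all genes, with medians of -0.84 and -1.37. Of the 26 others, 7 and 6 were, with medians of -0.53 and -1.22. For 50-base stretches, the unique share was also taken in the 15 genes described by rule. It was 99.0% in H4c14, 97.7% in H1f3, 91.8% in H1f4, 91.5% in H1f2, 89.8% in H4c4, 88.6% in H2bc6 and 80.4% in H4c3. It was 69.4% in H2bc4, 61.4% in H2ac20, 60.5% in H4c6, 59.6% in H4c1, 54.2% in H4c8 and 50.7% in H3c7. In H3c6 it was 26.6% and in H4c2 45.4%. Within classes, coding sequences of equal length were 81.4% to 100% identical for H2A, 82.9% to 99.0% for H2B, 93.7% to 100% for H3 and 87.8% to 98.4% for H4. The part of placement in the differences was not tested beyond this split.

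Reads on the opposite strand made up 14.8% to 15.5% of all reads at these genes in wt/wt mice, 14.8% and 15.1% in wt/flox mice, and 16.6% to 17.1% in flox/flox. Over all genes that share was 6.43% to 7.78%. H2ac21 had 768 antisense against 361 sense reads, and H2ac19 128 against 37. Both overlap annotated genes on the opposite strand.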

How the data were processed

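The deposited values are raw counts of reads per gene, in separate columns for the gene's strand (sense) and the opposite strand, per the file headers. The build and tool that the submitters' processing notes name are GRCm38 (mm10) and DESeq2. No aligner, counter or annotation is given in the sources used here. Sense counts of 25229 genes were used, without 5 rows that name no gene. Reads in no gene were 22.2% to 28.1% (wt/wt) and 31.7% to 40.01% (wt/flox and flox/flox) of all sense reads in genes, in no gene or ambiguous between genes.

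The quasi-likelihood F test of edgeR 4.0.16, run in R 4.3.3 and two-sided, was applied to the counts with genotype as the only term, all 8 libraries in a single fit, TMM size factors, the filterByExpr filter (14728 genes) and Benjamini-Hochberg adjustment at 0.05 over all genes tested. CPM were computed here from TMM-scaled library sizes. SE is the absolute log2 fold change divided by the root of F. Symbols were matched to GENCODE M21 for 24701 genes (97.9%) and to all 56 histone genes.

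The histone genes, the lists and the tests were chosen with earlier results of these data known. Values in every library are given for the 12 histone genes of highest mean CPM and for those called, up to the 12 smallest adjusted p per comparison. H2bc8, H3c13, H3c1, H4c9, H1f5, H2ac6 and H2bc21 were added after their values were seen. From each list of other genes, up to 3 called genes per comparison could be named, with Slbp, Npat and Lsm11 always. The fit was checked on simulated counts. Alternatives were other size factors and filters, DESeq2 1.42.0, limma-voom (limma 3.58.1), sex terms, a replicate block, 2 groups only, libraries left out, added antisense counts and an exon-length offset. Replicates differed by more than sampling noise. Total counts set the precision, and PCR copies were not told apart. The stem-loop pattern searched was a textbook consensus; the sites printed were read from the GENCODE M21 transcripts.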

Additional observations from a re-analysis of the deposited data

How the results depend on the processing

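No estimate of the 15 histone genes described by rule changed sign against wt/wt under any alternative. These 15 were chosen by level and by small adjusted p in the same libraries, and all were called lower in the main fit. Their kept sign was thus largely set by that choice and does not extend to the other tested histone genes. Of the counts of calls, 60 stayed within 1.5 times the main count and 9 did not. The 60 include all counts in flox/flox against wt/flox, where the main count was also 0. In flox/flox against wt/wt, with 17 calls in the main analysis, leaving out 1 library gave 11 to 18, leaving out the 2 libraries of contradicted sex 8, and removing the exon-length trend 10. In wt/flox against wt/wt, also with 17, leaving out 1 library gave 0 to 21, with 10 when wt/wt replicate 1 was left out, 0 when wt/wt replicate 2 was, and 0 when either wt/flox replicate was. There DESeq2 gave 26 and removing the exon-length trend 7. In flox/flox against wt/flox all alternatives gave 0. For those 15 genes, 108 of 690 combinations of a gene, a comparison with wt/wt and a setting gave no call. Scaling by library size alone shifted the median of all genes to -0.31 and -0.42 in the comparisons with wt/wt, and under it the wt/wt over flox/flox ratios were 2.81 for H1, 3.42 for H2B, 2.08 for H3 and 3.51 for H4. The cause of these changes was not tested, except that leaving out a library leaves fewer samples. With the replicate number as a block, 21 and 18 histone genes were lower in flox/flox and in wt/flox against wt/wt, and 17 and 20 with the labelled sex added. Deviations of same-numbered libraries correlated at 0.011 to 0.447, and those of other pairs at -0.471 to 0.337. The replicate number, which follows the labelled age in every group, was not used to pair mice in the main fit. At these depths, the 7 genes with under 80 summed reads were left out by the filter; without it 53 histone genes were tested.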
